A study of Mus musculus with 9 samples.

Results

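Amino acids that pass the glomerular filter are taken back almost completely by the proximal tubule. Transporters of the apical brush border carry them from the urine into the cell against a gradient, mostly together with sodium, and exchangers and a facilitator of the basolateral membrane then release them towards the blood. Several of these transporters work in pairs, in which a heavy chain or a partner protein is needed to bring the transporting chain to the membrane, and inherited loss of single members causes cystinuria, Hartnup disorder, dicarboxylic aminoaciduria or lysinuric protein intolerance. The genes described here are the 10 transporters and partners of this route named by symbol: Slc6a19, Slc6a18, Tmem27, Slc3a1, Slc7a9 and Slc1a1 of the apical membrane, and Slc3a2, Slc7a7, Slc7a8 and Slc16a10 of the basolateral membrane. All 10 were found in the table of 24421 genes and all 10 passed the filter on low values, which kept 15583 genes. The rule names them by symbol and uses no measured value, but the members were chosen with earlier results of these data known.

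RNA was sequenced from tdTomato-positive proximal tubular cells sorted from mice of the C57BL/6 strain in 3 groups of 3: db/m as controls, db/db, and treated db/db-dapa mice. All mice carried CreERT2 in the Slc34a1 locus and the R26tdTomato reporter, and were given 5 injections of tamoxifen (3 mg/mouse) at 8 weeks of age, so that cells in which Slc34a1 was active at that time were labelled. The db/db mice lack a working leptin receptor and become obese and diabetic, and the db/m mice, which carry 1 mutant copy, were the non-diabetic controls. The db/db-dapa mice received dapagliflozin, an inhibitor of the glucose transporter SGLT2, at 1.5 mg/kg/day in the drinking water for 8 weeks, and the db/db mice received vehicle. They are also called treated and untreated db/db mice. The labels name kidney as the tissue and leave the sex of the mice out. The comparison of db/db with db/m mice asks what diabetes does to these cells, and that of the treated with the untreated db/db mice asks what the drug does. In such pooled RNA, fewer cells of a type and less RNA per cell cannot be told apart.

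The libraries held 2733314 to 9033062 counts (median 6571539), and the shallowest was that of db/db replicate 1. Levels are given as CPM, the count scaled to a common library size (TMM), and calls required an adjusted p under 0.1 together with a log2 fold change beyond 1 in either direction (edgeR, Benjamini-Hochberg over all tested genes). Every member had at least 164 counts in every library. The 14 proximal tubule markers, among them Miox, together reached 29761 to 30725 CPM in db/m, 32989 to 42329 in db/db and 37994 to 46199 in db/db-dapa mice, so that the markers of the labelled cell type were high in every library. Summed markers of the thick ascending limb (Umod, Egf and 3 others) were at 1293 to 2098 CPM in db/m, 597 to 1691 in db/db and 795 to 983 in db/db-dapa mice, those of the distal convoluted tubule at 293 to 891, 372 to 673 and 336 to 406 CPM, and those of principal cells at 221 to 733, 225 to 465 and 136 to 247 CPM. The summed markers of intercalated cells stayed at or under 207 CPM, of the endothelium at or under 148 CPM, of macrophages 101 CPM, of fibroblasts and mural cells 24.0 CPM and of lymphocytes 2.83 CPM. Podocyte markers reached 255 CPM in db/db-dapa replicate 1 against 18.0 to 80.9 CPM in the other mice, and erythroid markers 1462 CPM in db/db replicate 2 against 29.6 to 421 CPM. No marker gene was at 0 in all mice.

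The DNA just ahead of the transcription starts was taken from RefSeq (GRCm38.p6) for the members the results turn on, and is shown from 5′ to 3′ in the direction of the gene, cut where GENCODE places an exon. At most 150 bases before a start are printed. Promoters were matched for 9 of the 10 members, 15 promoters in all, each from 250 bases before to 50 bases after a start; none was matched for Slc6a18. Capitals mark a complete match, on either strand, to TGATGNAA, a core of the amino acid response element bound by ATF4. The stretch ahead of the first start of Slc7a7 (chr14:54417945-54418094, minus strand) was chosen because it holds the complete match within the printed stretches, Slc3a1 (chr17:85028197-85028346, plus strand) and Slc1a1 (chr19:28834985-28835048, plus strand) because their levels moved together over the mice, and Slc7a8 (chr14:54781947-54782036, minus strand) because its level differed most between groups.
Slc7a7, first start: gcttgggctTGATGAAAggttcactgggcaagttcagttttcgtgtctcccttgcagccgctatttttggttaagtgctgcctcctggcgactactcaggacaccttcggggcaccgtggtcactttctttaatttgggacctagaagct
Slc3a1: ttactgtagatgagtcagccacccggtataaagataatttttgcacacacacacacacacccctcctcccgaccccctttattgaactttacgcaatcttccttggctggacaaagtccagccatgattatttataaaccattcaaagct
Slc1a1: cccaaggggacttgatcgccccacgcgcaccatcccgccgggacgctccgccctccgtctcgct
Slc7a8: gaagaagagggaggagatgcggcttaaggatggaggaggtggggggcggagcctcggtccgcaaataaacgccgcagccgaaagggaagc

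Within the 300 bases searched around each start, TGATGNAA was found in 1 of the 9 matched members, Slc7a7. Matches began 141 bases and 1 base before its first start. The match that began 243 bases before its second start is the same site as the one 1 base before the first. Of all 27025 genes with a promoter in the same table, 4.51% held it. No match was found in the promoters of the other matched members. Slc7a7 was counted with 5 starts and most members with 1, so that the chance of a match was not equal between them.

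Between levels of different genes, CPM per kilobase of the longest annotated transcript was compared. Tmem27, also named Cltrn, was the most abundant member at 1371 CPM per kb over the 9 mice (range 1036 to 1715). It was followed by Slc3a1 at 218, Slc3a2 at 149, Slc7a7 at 137, Slc6a18 at 127, Slc6a19 at 99.8, Slc7a9 at 98.8, Slc7a8 at 89.7 and Slc1a1 at 88.3 CPM per kb. Slc16a10 was the lowest at 16.6 CPM per kb (range 6.75 to 23.2). Of the steps between neighbours in this order, only those from Tmem27 to Slc3a1 and from Slc1a1 to Slc16a10 were free of overlap over the 9 mice. Beyond neighbours, every value of Slc3a1 lay above every value of Slc6a19, Slc7a9, Slc7a8 and Slc1a1, whereas Slc6a18 in db/db replicate 1 fell within the range of Slc16a10. Slc3a1 was second in each group. It stood apart from the next gene in db/m mice (163 to 196 CPM per kb) and in db/db-dapa mice (218 to 332), and overlapped it in the untreated db/db mice (142 to 325). When the total length of all exons was used in place of the longest transcript, 3 of the 10 positions moved.

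**Figure D1:**
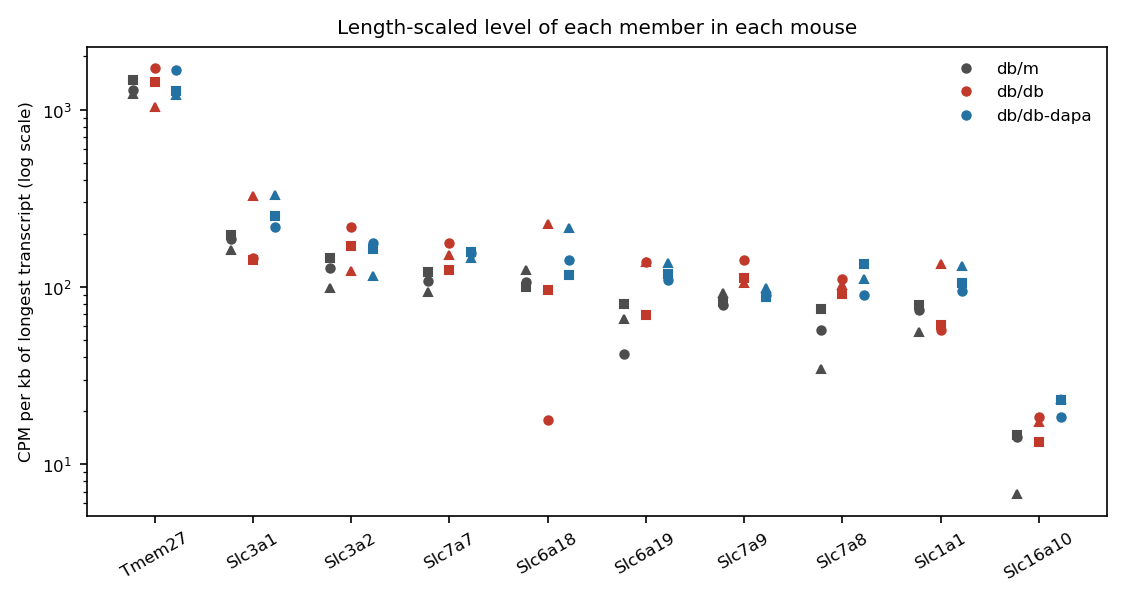
CPM per kb of the longest transcript (log scale) for the 10 members, ordered by their mean over 9 mice; each point is 1 mouse, coloured by group, with circle, square and triangle for replicates 1, 2 and 3. Tmem27 lies above all other members in every mouse, and Slc16a10 below them except for the single low point of Slc6a18 at 17.8 CPM per kb, which is db/db replicate 1 and lies under Slc16a10 at 18.5 CPM per kb in that mouse.

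No member was called in any of the 3 comparisons. In the main fit their levels were nevertheless on 1 side in both diabetic groups: all 10 members had a log2 fold change above 0 in db/db against db/m mice, where 51.6% of all tested genes did, and all 10 again in db/db-dapa against db/m mice, where 48.5% did. These comparisons share the db/m mice. In db/db mice Slc6a18 and Tmem27 were close to 0 (0.04 and 0.07). When single mice were left out, 7 to 10 members were above 0 in db/db and 9 to 10 in db/db-dapa against db/m mice. With limma voom and mouse weights, Slc6a18 (-1.075), Slc3a1 (-0.233) and Slc1a1 (-0.154) were under 0 in db/db against db/m mice, and Tmem27 (-0.034) in db/db-dapa against db/m mice. Over the 10 members the median was 0.46 in db/db mice (0.02 over all tested genes) and 0.54 in db/db-dapa mice (-0.02 over all tested genes). Between treated and untreated db/db mice 7 members were above 0 and 3 below, with a median of 0.11, where 48.7% of all tested genes were above 0.

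Of all tested genes, 1.24% were called between db/db and db/m mice (194 genes), 1.05% between treated db/db and db/m mice (164 genes) and 0% between treated and untreated db/db mice. An unadjusted p under 0.05 was reached by 4 members between db/db and db/m mice, against 13.7% of all tested genes, by 4 members between treated db/db and db/m mice, against 18.2%, and by 1 member between treated and untreated db/db mice, against 5.19%. By DESeq2, likewise, no member was called in any comparison, although 3 members of the untreated and 4 of the treated db/db mice had an adjusted p under 0.1 against db/m mice, with log2 fold changes under 1. DESeq2 called 363 and 507 of the 15583 tested genes in these comparisons. How many genes had an adjusted p under 0.1 at any fold change by DESeq2 was not counted. The groups did not overlap for 3 members in db/db against db/m mice, all higher (8.28% of all tested genes were higher and 8.13% lower without overlap), and for 6 members in db/db-dapa against db/m mice, all higher (14.4% and 13.7%). Between treated and untreated db/db mice 0 members were higher and 1 was lower without overlap (4.9% and 5.29%).

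The proximal tubule markers lay on the same side. Of the 14 markers, 12 in untreated and 13 in treated db/db mice had log2 fold changes above 0 against db/m mice, with medians of 0.39 and 0.47 beside the members' 0.46 and 0.54, and 0 of the 14 was called. The summed level of the members was 13.1% to 16.1% of that of the markers in db/m, 11.1% to 16.5% in db/db and 11.8% to 15.1% in db/db-dapa mice, so that the 3 groups overlapped. Relative to the mean log2 level of the markers in the same mouse, a scale chosen after the values were seen, 6 of 10 members were above 0 in db/db and 4 of 10 in db/db-dapa against db/m mice. On that scale 0 members were higher without overlap in any comparison (0.712% to 2.83% of all tested genes), and Slc7a9 alone was lower without overlap, in db/db-dapa mice against db/m mice (54.0% of all tested genes) and against untreated db/db mice (12%). Between db/db and db/m mice 0 members were lower without overlap (14.4%). With shares of this size on the scale itself, the counts are no result about the members. The part of the share of proximal tubule RNA in the members' levels was otherwise not tested.

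**Figure D2:**
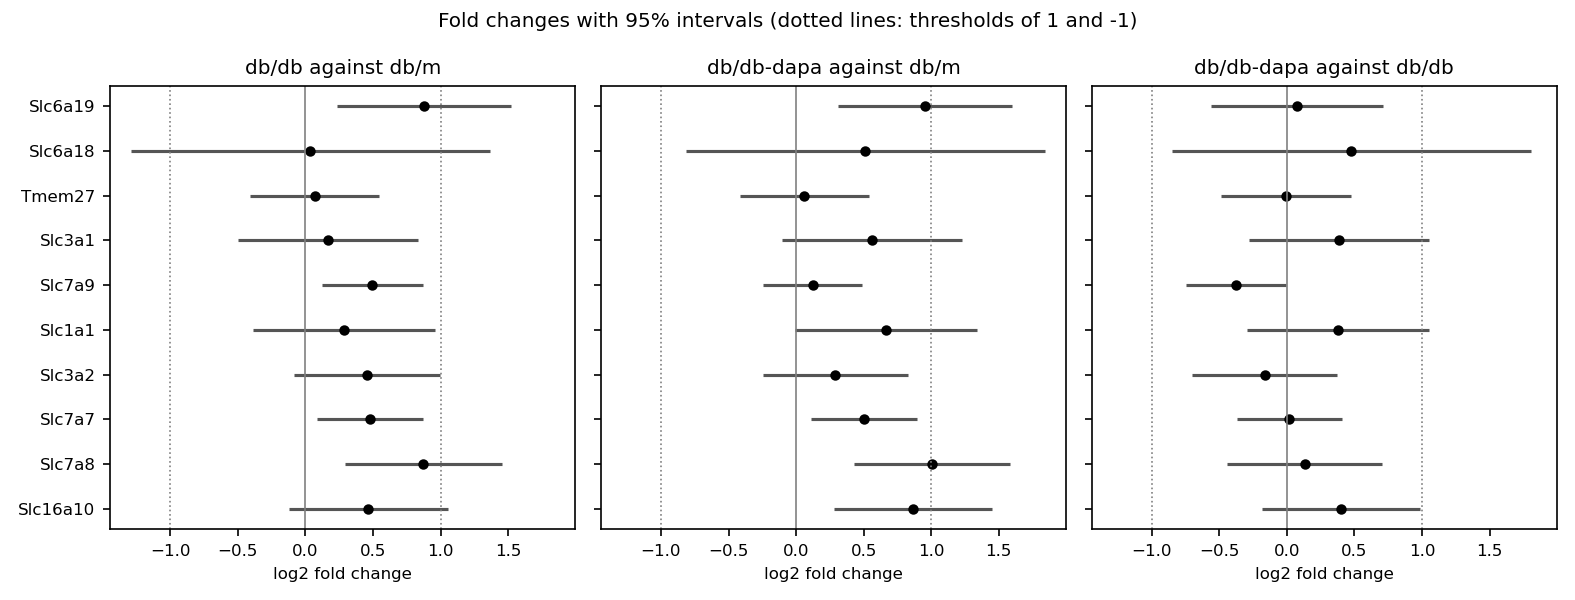
log2 fold change of each member (points) with its 95% interval (lines) from the fit over all 9 mice, in the 3 comparisons; dotted lines mark the fold threshold at 1 and -1. All points lie right of 0 in both comparisons with db/m mice, the widest intervals are those of Slc6a18, and only the point of Slc7a8 in db/db-dapa against db/m mice passes 1.

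Slc6a19, the main sodium-coupled carrier of neutral amino acids in the brush border and the gene of Hartnup disorder, lies on chromosome 13 from 73679745 to 73704865 (GRCm38, minus strand). It was found at 175, 336 and 278 CPM in the db/m mice (replicates 1, 2 and 3, an order kept throughout), at 577, 292 and 579 CPM in the db/db mice and at 461, 493 and 575 CPM in the db/db-dapa mice. All db/db-dapa mice were above all db/m mice, whereas db/db replicate 2 lay inside the db/m range. Its log2 fold change was 0.88 ± 0.29 (SE, adjusted p = 0.222) in db/db and 0.95 ± 0.29 (SE, adjusted p = 0.172) in db/db-dapa against db/m mice, and 0.08 between treated and untreated db/db mice (95% interval -0.56 to 0.71). With limma voom and mouse weights it was called in db/db-dapa against db/m mice (1.14, adjusted p = 0.0115), as were 1619 of 15583 tested genes. Slc6a19 overlaps the antisense gene Slc6a19os, and whether strand was used in counting is not given in the sources used here.

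Slc6a18, a carrier of neutral amino acids of the later proximal tubule, lies beside it on chromosome 13 from 73661752 to 73678023 on the minus strand. Its level was 441, 416 and 519 CPM in db/m mice, 73.8, 396 and 938 CPM in db/db mice and 587, 487 and 889 CPM in db/db-dapa mice. The db/db group held both the lowest and the highest value of all 9 mice, which differed 12.7-fold. The SD of its log2 level within groups was 1.11, higher than that of 99.6% of tested genes (median 0.30), and it was the member that varied most. The 95% interval of its log2 fold change between db/db and db/m mice ran from -1.29 to 1.36, and between treated and untreated db/db mice from -0.85 to 1.80. A difference of 2-fold between db/db and db/m mice, in either direction, would not have been detectable. Without db/db replicate 3 the log2 fold change between db/db and db/m mice was -0.96 in place of 0.04.

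Tmem27, or collectrin, carries Slc6a19 and Slc6a18 to the apical membrane. It lies on chromosome X from 164088830 to 164118860 (plus strand). It was at 1799.9, 2048 and 1699 CPM in db/m mice, 2382, 1993 and 1439 CPM in db/db mice and 2320.2, 1772 and 1690.2 CPM in db/db-dapa mice. The ranges of the 3 groups overlapped widely, and the log2 fold changes were 0.07 (95% interval -0.41 to 0.55) in db/db and 0.06 (95% interval -0.42 to 0.54) in db/db-dapa against db/m mice. The intervals leave out a change of 2-fold in either direction. The direction of such small differences changed with the processing.

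The ratio of Tmem27 to Slc6a19, per kilobase, was 31.1, 18.4 and 18.4 in db/m mice, 12.5, 20.6 and 7.49 in db/db mice and 15.2, 10.8 and 8.88 in db/db-dapa mice. It was lower in every treated than in every db/m mouse, by 0.95 on the log2 scale (exact permutation test, two-sided, p = 0.1, the smallest that 3 against 3 mice can give; adjusted p = 0.573 over the 21 comparisons of ratios). The ratio of Slc6a19 to Slc6a18 was 7.74 in db/db replicate 1 and 0.392 to 1.0 in the other 8 mice. Likewise the ratio of Tmem27 to Slc6a18 was 96.5 in db/db replicate 1 and 4.58 to 15 elsewhere.

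**Figure D3:**
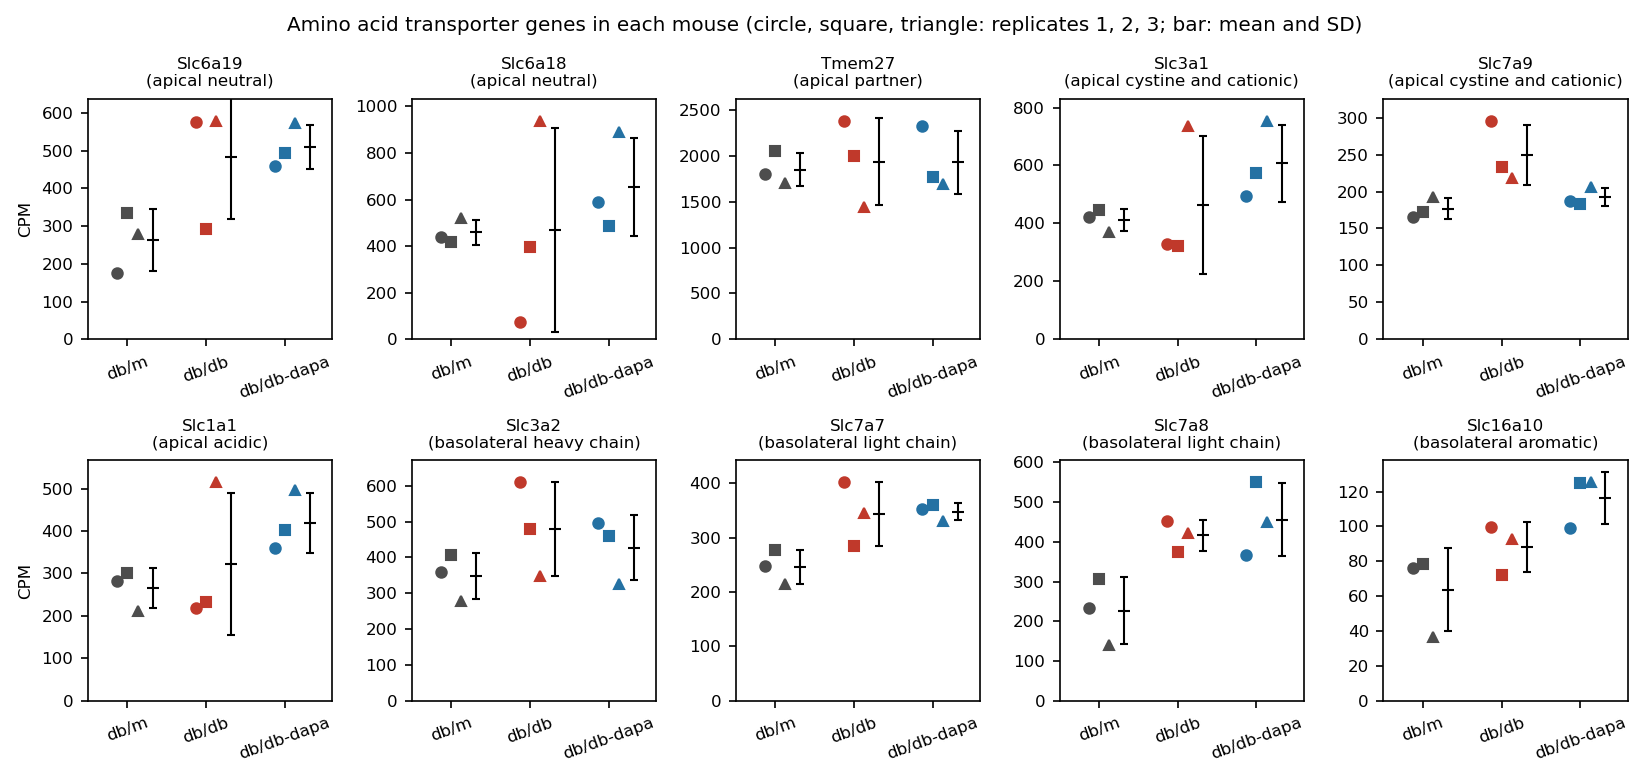
CPM of the 10 members in each of 9 mice (linear axes from 0), coloured by group, with circle, square and triangle for replicates 1, 2 and 3 and a bar for the mean and SD of each group (n = 3). Slc6a18 spreads from 73.8 to 938 CPM within db/db mice, while Slc7a9 is above the other groups in all 3 db/db mice.

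Some markers of the proximal tubule segments also had extreme values in db/db replicate 1. In this mouse, where Slc6a18 was lowest, Slc5a2, the early-segment glucose transporter that dapagliflozin inhibits, was at its highest (2124 CPM against 741 to 1309.6 CPM in the other mice). Slc22a6, an organic anion transporter that stands in the same list of early-segment markers, was at its lowest in the same mouse (384 CPM against 986 to 2142 CPM), as was Slc5a8, a monocarboxylate transporter of the later segments (38.4 CPM against 199 to 591 CPM). These genes were chosen after their values were seen, and the lists were mixed. Of the 7 early-segment markers, 3 (Slc5a2, Slc5a12 and Slc34a1) had their highest and 1 (Slc22a6) its lowest value of the 9 mice in db/db replicate 1. Of the 10 late-segment markers, 6 had their lowest value there, and Slc7a13, Slc22a7, Slc22a30 and Cyp7b1 did not. Summed late-segment markers were at 1854 CPM in this mouse, 2860.3 and 5454 CPM in the other db/db mice, 5125 to 8823 CPM in db/db-dapa and 26010.0 to 37221 CPM in db/m mice, and most of the sum was Kap, a kidney protein gene that responds to androgen. Kap and Slc22a7, an organic anion transporter, were called lower in both diabetic groups. The log2 fold change of Kap was -3.73 with vehicle (adjusted p = 0.00117). With the drug it was -2.41 (adjusted p = 0.0133, or 0.104 without db/db-dapa replicate 2). The late-segment list itself was mixed, so its sum does not stand for all its markers. With vehicle, 4 of the 10 were higher than in db/m mice and 6 lower (0 and 5 without overlap). With the drug, 3 were higher and 7 lower (3 and 5 without overlap). The 3 higher ones were Slc5a10 (1.33), Acox2 (0.98) and Slc5a8 (0.76), and none of them was called. Summed early-segment markers, led by Slc34a1 and Gatm, were at 8407 to 9584 CPM in db/m, 10853 to 13279 in db/db and 12168 to 13624 CPM in db/db-dapa mice. Slc6a18 was at 416 to 519 CPM in db/m and 487 to 889 CPM in db/db-dapa mice. The part of segment make-up in the members' levels was not tested.

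**Figure D4:**
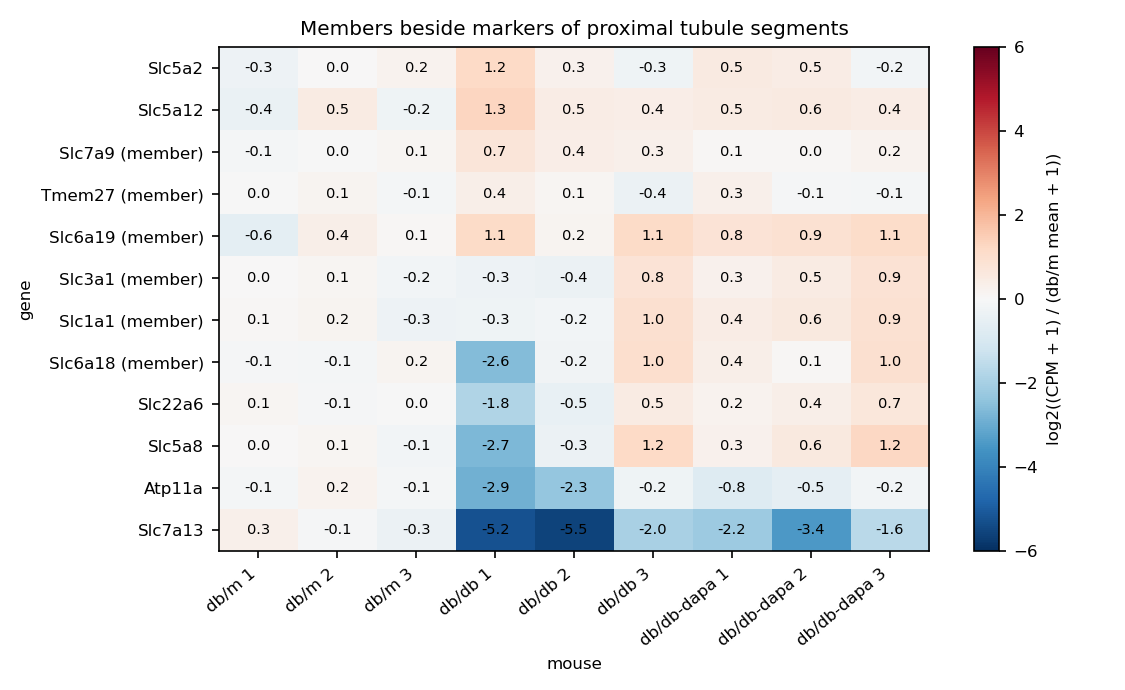
log2 of (CPM + 1) relative to the mean of the db/m mice, for members and for markers of proximal tubule segments (rows) in each mouse (columns); red is above and blue below the db/m mean. The markers are a selection from the segment lists, chosen after their values were seen. In db/db replicate 1 Slc5a2 and Slc5a12 are above the db/m mean while Slc6a18, Slc22a6, Slc5a8, Atp11a and Slc7a13 are below it.

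Slc3a1 and Slc7a9 together form the apical exchanger for cystine and cationic amino acids, and loss of either causes cystinuria. Slc3a1, the heavy chain (chromosome 17 from 85028376 to 85064236, plus strand), was at 421, 446 and 369 CPM in db/m mice, 329.7, 323 and 738 CPM in db/db mice and 494, 574 and 754 CPM in db/db-dapa mice. Every db/db-dapa mouse was above every db/m mouse, whereas 2 db/db mice were below and 1 above all db/m mice. Its log2 fold change was 0.56 ± 0.30 (SE, adjusted p = 0.335) in db/db-dapa and 0.17 ± 0.30 (SE, adjusted p = 0.836) in db/db against db/m mice. Leaving out db/db replicate 3 gave -0.35 in db/db against db/m mice and 0.91 in treated against untreated db/db mice (adjusted p = 0.0829). This omission raised the genes called between treated and untreated db/db mice from 0 to 272 of 15583.

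Slc7a9, the transporting chain (chromosome 7 from 35448796 to 35466036, plus strand), was at 165, 172 and 193 CPM in db/m mice, 296, 234 and 219 CPM in db/db mice and 187, 183 and 206 CPM in db/db-dapa mice. All db/db mice were above the mice of both other groups, which overlapped each other. It was the only member whose 95% intervals left out 0 in both comparisons of db/db mice, at 0.50 (95% interval 0.13 to 0.87, adjusted p = 0.23) against db/m mice and -0.38 (95% interval -0.74 to -0.005, adjusted p = 0.854) for treated against untreated db/db mice. These comparisons share the db/db mice. In db/db-dapa against db/m mice its log2 fold change was 0.12 (95% interval -0.25 to 0.49). Slc7a9 varied least within groups, with an SD of 0.16 on the log2 scale, at percentile 9.91 of the tested genes.

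The heavy and the transporting chain did not keep a fixed ratio. Slc3a1 to Slc7a9, per kilobase, was 2.34, 2.37 and 1.76 in db/m mice, 1.02, 1.27 and 3.1 in db/db mice and 2.42, 2.88 and 3.36 in db/db-dapa mice. The ratio was higher in every treated than in every db/m mouse, by 0.42 on the log2 scale (exact permutation p = 0.1, adjusted p = 0.573). Against db/db mice the difference was 0.85 (exact permutation p = 0.3, adjusted p = 0.573), and db/db replicate 3 lay among the db/db-dapa mice. Slc3a1 overlaps Prepl on the opposite strand, and 5 of its 9 deposited values were not whole numbers. The reason was not tested.

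Slc1a1, the sodium-coupled carrier of glutamate and aspartate, lies on chromosome 19 from 28835049 to 28913960 (plus strand) and is the gene of dicarboxylic aminoaciduria. Its level was 282, 301 and 212 CPM in db/m mice, 218, 233 and 515 CPM in db/db mice and 360.3, 401 and 497 CPM in db/db-dapa mice. As for Slc3a1, all db/db-dapa mice were above all db/m mice and db/db replicate 3 stood above the other 2 of its group. The log2 fold change was 0.66 ± 0.31 (SE, adjusted p = 0.28) in db/db-dapa and 0.28 ± 0.31 (SE, adjusted p = 0.725) in db/db against db/m mice. Without db/db replicate 3 it was -0.24 in db/db against db/m mice and 0.91 in treated against untreated db/db mice (adjusted p = 0.0835), where that omission gave 272 called genes in place of 0. Slc1a1 is overlapped by Gm5822 and, on the opposite strand, by 4430402I18Rik.

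Slc3a1 and Slc1a1, which lie on different chromosomes and are not known as partners, were the closest pair among the members. Their ratio per kilobase was 2.5, 2.48 and 2.92 in db/m mice, 2.53, 2.31 and 2.4 in db/db mice and 2.29, 2.39 and 2.54 in db/db-dapa mice, a range of 1.27-fold over mice in which Slc3a1 varied 2.34-fold and Slc1a1 2.43-fold. Of the 45 pairs of members this ratio had the smallest SD, 0.10 on the log2 scale, followed by Tmem27 with Slc3a2 at 0.22 and Slc7a8 with Slc16a10 at 0.23. The pair was chosen after its values were seen, and no test was made of it. The 7 pairs of known partners or related carriers ranged from 1.71-fold (Slc3a2 to Slc7a7) to 21.1-fold (Tmem27 to Slc6a18). Unlike Slc3a1 with Slc1a1, they were not picked as the tightest of the 45 pairs, so the ranges cannot be compared directly.

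**Figure D5:**
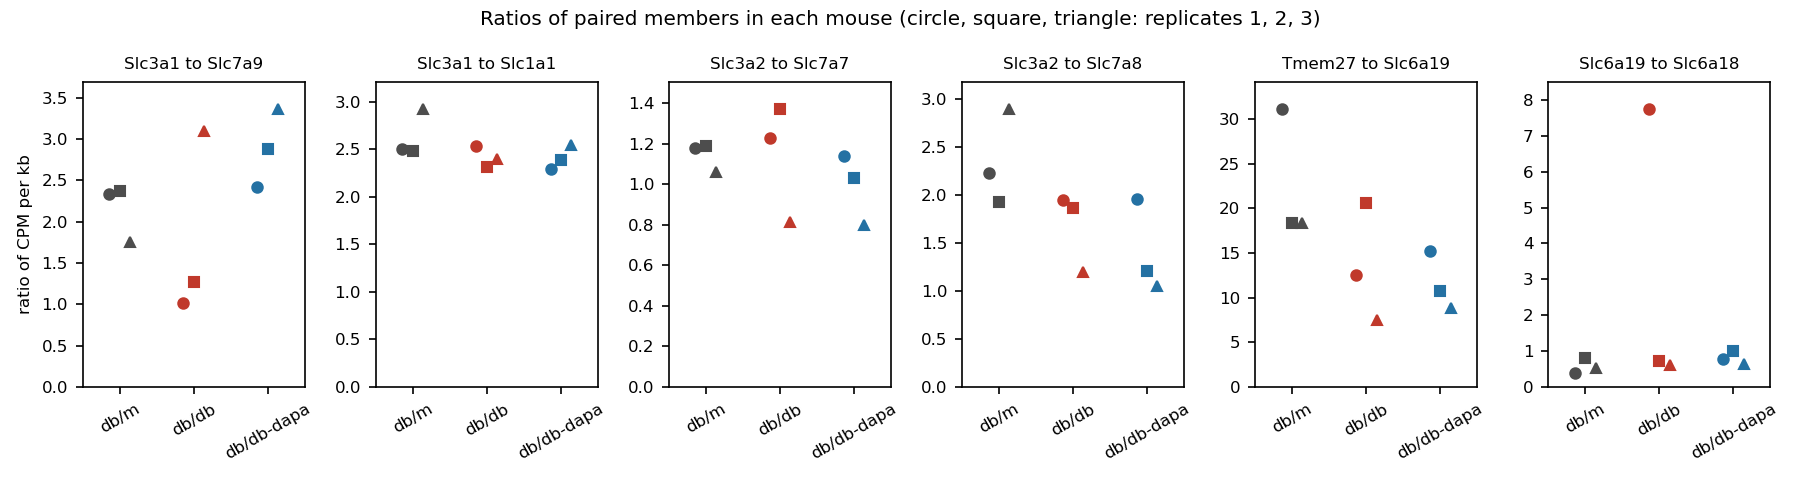
Ratio of CPM per kb of 6 pairs of members in each mouse (linear axes from 0), coloured by group, with circle, square and triangle for replicates 1, 2 and 3. Slc3a1 to Slc1a1 stays between 2.29 and 2.92 in all mice, Slc3a1 to Slc7a9 runs from 1.02 to 3.36, and Slc6a19 to Slc6a18 reaches 7.74 in db/db replicate 1 alone.

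On the basolateral side, Slc3a2 encodes the heavy chain that Slc7a7 and Slc7a8 share. It lies on chromosome 19 from 8706882 to 8723369 (minus strand) and was at 359.5, 408 and 279 CPM in db/m mice, 609, 479 and 347 CPM in db/db mice and 496, 459 and 325 CPM in db/db-dapa mice. The groups overlapped in all comparisons. The log2 fold change was 0.46 ± 0.25 (SE, adjusted p = 0.446) in db/db and 0.29 ± 0.25 (SE, adjusted p = 0.521) in db/db-dapa against db/m mice. None of its 9 deposited values was whole, and how they were made is not given in the sources used here.

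Slc7a7, the light chain that exports cationic amino acids and the gene of lysinuric protein intolerance, lies on chromosome 14 from 54369442 to 54417780 (minus strand). The sequence printed for it lies ahead of this interval. It was at 248, 277 and 214 CPM in db/m mice, 402, 284 and 345 CPM in db/db mice and 353, 361 and 330.3 CPM in db/db-dapa mice. Every mouse of both diabetic groups was above every db/m mouse, although db/db replicate 2, at 284 CPM, was close to the highest db/m mouse at 277 CPM. The log2 fold changes against db/m mice were 0.48 ± 0.18 (SE, adjusted p = 0.265) in db/db and 0.50 ± 0.18 (SE, adjusted p = 0.212) in db/db-dapa mice. Between treated and untreated db/db mice it was 0.02 (95% interval -0.37 to 0.41). Slc7a7 overlaps Oxa1l on the opposite strand, and 6 of its 9 values were not whole.

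Slc7a8, the light chain that exchanges neutral amino acids, lies on chromosome 14 from 54722209 to 54781946 (minus strand). It was found at 234, 307 and 140.3 CPM in db/m mice, 453, 374 and 421 CPM in db/db mice and 367, 549.7 and 451 CPM in db/db-dapa mice. The lowest diabetic mouse was above the highest db/m mouse in both groups. Its difference from db/m mice in db/db-dapa mice was the largest of the members and the only one past the fold threshold, at 1.01 ± 0.26 on the log2 scale (SE), and missed the threshold of the test with an adjusted p of 0.123. In db/db mice it was 0.87 ± 0.26 (SE, adjusted p = 0.18). Whether Slc7a8 was called rested on the processing: it was called in db/db-dapa against db/m mice without the filter on low counts (adjusted p = 0.0884), with only these groups in the fit (adjusted p = 0.071), without db/db replicate 3 (adjusted p = 0.0518), and with limma voom and mouse weights (adjusted p = 0.00569), whereas its adjusted p ran up to 0.461 over all alternatives, reached without db/db-dapa replicate 2. In the settings that called it, and in the same order, 275 of 18076, 626 of 15071, 664 of 15583 and 1619 of 15583 tested genes were called. In the main fit it was 164 of 15583.

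Slc16a10, a facilitator of aromatic amino acids that needs no partner chain or ion, lies on chromosome 10 from 40033532 to 40142258 (minus strand). It was at 76.4, 78.3 and 36.4 CPM in db/m mice, 99.9, 72.2 and 93.0 CPM in db/db mice and 99.2, 125 and 125 CPM in db/db-dapa mice. All db/db-dapa mice were above all db/m mice. The log2 fold change was 0.87 ± 0.27 (SE, adjusted p = 0.172) in db/db-dapa and 0.47 ± 0.27 (SE, adjusted p = 0.477) in db/db against db/m mice.

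Db/m replicate 3 had the lowest value of its group for Slc7a7, Slc7a8, Slc16a10, Slc3a2, Slc1a1, Slc3a1 and Tmem27, and the highest for Slc6a18 and Slc7a9. The same library had the highest summed levels of thick ascending limb, distal convoluted tubule, principal cell and intercalated cell markers of all mice. Without this library, the log2 fold changes of Slc7a8 against db/m mice were 0.61 in untreated and 0.75 in treated db/db mice, and those of Slc16a10 0.18 and 0.59. Leaving out the lowest control value must make such a difference smaller, so these values do not measure a part of this library. The part of its cell make-up in the members' levels was not tested. The ratio of Slc3a2 to its light chain Slc7a8 was 2.23, 1.93 and 2.89 in db/m mice, 1.95, 1.86 and 1.2 in db/db mice and 1.96, 1.21 and 1.05 in db/db-dapa mice, with a difference between treated db/db and db/m mice of -0.77 on the log2 scale (exact permutation p = 0.2, adjusted p = 0.573). None of the 21 comparisons of ratios had an adjusted p under 0.573.

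For each member the gene most like it over the 9 mice, by Pearson r of log2(CPM + 1) among 9125 genes with a mean of at least 10 CPM, was sought as a description. These were Maf for Slc6a19 (r = 0.983), Spast for Slc6a18 (0.987), Igfbp7 for Tmem27 (0.924), Slc11a2 for Slc3a1 (0.993), Mapk8ip3 for Slc7a9 (0.975), Mios for Slc1a1 (0.987), Gm6793 for Slc3a2 (0.94), Ddx10 for Slc7a7 (0.959), Tbc1d32 for Slc7a8 (0.96) and Zfp408 for Slc16a10 (0.967). With 9 points and so many candidates high values arise readily, and the points share library depth and cell make-up. Among the members themselves the most alike were Slc3a1 and Slc1a1 (r = 0.979), and only 8 of the 9125 genes were closer to Slc3a1 than Slc1a1 was. By correlation Slc7a9 had no close member, the nearest being Slc7a7 (r = 0.524). By the SD of the log2 ratio, the same pair held rank 5 of the 45 pairs (SD 0.27).

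Of 31 other amino acid transporters, 30 were tested. Between db/db and db/m mice 1 was called higher and 0 lower, with a median log2 fold change of 0.18. Between treated db/db and db/m mice 2 were called higher and 0 lower, with a median of 0.34. In these comparisons 17 and 19 of the 30 were above 0, against 51.6% and 48.5% of all tested genes. Of all tested genes 1.24% and 1.05% were called, with medians of 0.02 and -0.02. Between treated and untreated db/db mice none was called, as for all genes. Slc38a3, a basolateral carrier that takes up glutamine, was at 30.4, 17.6 and 29.1 CPM in db/m mice, 9.86, 60.8 and 93.3 CPM in db/db mice and 123, 160.2 and 206 CPM in db/db-dapa mice. It was called higher in treated than in db/m mice, by 2.67 on the log2 scale (SE 0.57, adjusted p = 0.073), in 14 of 21 alternatives too, and all db/db-dapa mice were above all others. The call ended without any 1 of the db/m mice, without db/db replicate 2 and without db/db-dapa replicate 2 or 3 (adjusted p = 0.101 to 0.287). Against db/db mice the difference was 1.55 (95% interval 0.37 to 2.73, adjusted p = 0.854).

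Slc6a6, the taurine transporter, was called higher in db/db-dapa mice (374, 519 and 607 CPM) than in db/m mice (166, 205 and 122 CPM), by 1.61 on the log2 scale (SE 0.38, adjusted p = 0.0998; called in 12 of 21 alternatives), and was at 236, 248 and 652 CPM in db/db mice. Leaving out the same mice, each alone, ended this call as well (adjusted p = 0.101 to 0.374). Slc36a4, an amino acid carrier of lysosomes and the cell surface, was called between db/db and db/m mice, but only at 1.36 to 1.77 against 0.157 to 0.222 CPM, which was 1 count in each db/m mouse, and it was called in 11 of 20 alternatives. That call ended without any 1 of the db/m mice and without replicate 2 or 3 of either diabetic group (adjusted p = 0.119 to 0.258). Slc7a13, a cystine and aspartate transporter of the late proximal tubule and the highest of the list per kilobase, was at 484, 375 and 310.4 CPM in db/m mice, 9.52, 7.40 and 100.2 CPM in db/db mice and 84.7, 35.1 and 125 CPM in db/db-dapa mice. All diabetic mice were below all db/m mice, with a log2 fold change of -3.27 in db/db mice (SE 0.83, adjusted p = 0.108), and it was not called. It was also 1 of the late-segment markers. Slc6a13, the next highest, was at 88.2, 92.1 and 96.4 CPM in db/m, 74.1, 85.2 and 204 CPM in db/db and 160.1, 159.5 and 172 CPM in db/db-dapa mice. Slc1a4, a carrier of alanine, serine and cysteine, was at 3.74, 12.8 and 26.8 CPM in db/db and 29.5, 41.2 and 44.6 CPM in db/db-dapa mice, with a log2 fold change of 1.33 (95% interval 0.33 to 2.34, adjusted p = 0.854), and at the other end Slc1a5 and Slc7a11 had log2 fold changes of -0.98 and -0.53. Slc7a5, another light chain for neutral amino acids, averaged 3.75 CPM in db/m, 1.72 CPM in db/db and 1.44 CPM in db/db-dapa mice.

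Among 10 regulators of these transporters, Sgk1, a kinase that raises the surface density of several of them, was the only one called. It was at 161, 94.2 and 92.6 CPM in db/m mice, 299, 329 and 307 CPM in db/db mice and 274, 179 and 267 CPM in db/db-dapa mice. It rose by 1.43 on the log2 scale in db/db (SE 0.25, adjusted p = 0.0239) and by 1.05 in db/db-dapa against db/m mice (SE 0.25, adjusted p = 0.0987), and was called in 21 and in 12 of 21 alternatives. The call in db/db-dapa mice ended without db/m replicate 2 or 3, db/db replicate 2 or any 1 of the db/db-dapa mice (adjusted p = 0.118 to 0.354). Hnf4a and Kl, the highest regulators per kilobase, were not called. Of the 4 brush border partners, none was called. Pdzk1, the scaffold and the highest of them, was at 1606 to 1739 CPM in db/m, 1320.1 to 1528 in db/db and 1575 to 1726 CPM in db/db-dapa mice, followed per kilobase by Slc9a3r1.

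Transcripts of the amino acid response, which ATF4 drives when cells lack amino acids, were mostly on the other side of 0 from the transporters. Of 16 genes, 12 had log2 fold changes under 0 in untreated and 11 in treated db/db mice against db/m mice, and 4 and 5 were above 0. Their medians were -0.38 and -0.44, and 0 was called. Of all tested genes 51.6% and 48.5% were above 0, with medians of 0.02 and -0.02. Atf4 itself was at 543, 445 and 327 CPM in db/m mice, 246, 426 and 188 CPM in db/db mice and 310.2, 267 and 273 CPM in db/db-dapa mice, with a log2 fold change of -0.61 in db/db mice (95% interval -1.24 to 0.01, adjusted p = 0.376). Asns, asparagine synthetase, had the lowest value at -1.04 (adjusted p = 0.335), and Sesn2 and Vldlr the highest at 0.57 and 0.54. Shmt2, the highest per kilobase, averaged 418, 384 and 419 CPM in the 3 groups. Between treated and untreated db/db mice 8 of the 16 were above 0, from -1.09 (Ddit3) and -0.97 (Mthfd2) to 0.36 (Ddit4) and 0.48 (Cebpb).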

How the data were processed

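RNA of sorted tdTomato-positive cells from 9 mice was analysed. Groups and replicate numbers follow the labels, and each library came from 1 mouse. The authors prepared stranded poly(A) libraries and aligned reads to mm10 with TopHat2 2.0.13 and Bowtie2 2.2.3, and the submitters' processing notes also name Cufflinks 2.2.1 and SAMtools 0.1.19. The table the authors deposited is named as FPKM, but it holds estimated counts per gene: 90.95% of the values are whole numbers and columns sum to 2733314 to 9033062. How they were made, and whether strand was used, is not given in the sources used here. Unused columns and rows without a gene name numbered 0.

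Values were rounded and tested with edgeR 4.0.16 (quasi-likelihood, earlier form, TMM, R 4.3.3) over all 9 mice, keeping genes with at least 0.3 CPM in at least 2 mice. Standard errors were derived from the F value. For ratios, an exact permutation test (two-sided, scipy 1.17.1) was used, which cannot give a p under 0.1 with 3 against 3 mice. DESeq2 1.42.0 and limma 3.58.1 were alternatives, beside other scalings and filters, fewer groups, a replicate block and each mouse left out. The edgeR fit was tested on simulated data. Lengths and positions came from GENCODE vM21 (GRCm38), with Tmem27 matched as Cltrn.

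The members and lists were chosen with earlier results of these data known. Named are all members, the called genes of each list and its highest 2 per kilobase, the extreme fold changes of the transporter and amino acid response lists (mean of at least 1 CPM) and the gene most like each member. Markers of cell types outside the proximal tubule are given mainly as sums. Protein sequences were not analysed here. Some genes of these lists, although part of the sums and counts, and 1 promoter motif are not reported here.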

Additional observations from a re-analysis of the deposited data

How the results depend on the processing

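Over 630 values of the members' 30 comparisons under the alternatives, 596 kept their direction and side of the threshold, 29 reversed and 5 became calls; 19 comparisons kept their direction throughout. The members called between db/db-dapa and db/m numbered 1 without the filter and 1 with only the groups compared (Slc7a8), 2 with voom and mouse weights (Slc7a8, Slc6a19), and 0 to 1 leaving out mice. Of all tested genes, 275 of 18076 were called without the filter, 626 of 15071 with only the groups compared and 1619 of 15583 with voom. Without db/db replicate 3 it was 664 of 15583, and in the main fit 164 of 15583. Members above 0, relative to the proximal tubule markers (an alternative chosen after seeing the data), numbered 4 (dapa, db/db), 6 (db/db, db/m) and 4 (dapa, db/m). With total exon length 3 positions of the level order moved.

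Genes called between db/db-dapa and db/db were 13 with DESeq2, 449 with voom and 0 to 272 leaving out mice (272 without db/db replicate 3). Between db/db and db/m they were 363 with DESeq2, 114 with only those groups and 85 to 230 leaving out mice. Between db/db-dapa and db/m they were 275 without the filter, 507 with DESeq2, 1619 with voom, 626 with only those groups and 14 to 664 leaving out mice (664 without db/db replicate 3). The causes were not tested.

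Log2 fold changes reversed as follows. For dapa against db/db, Tmem27 gave 0.008 with limma and -0.166 to 0.168 leaving out mice, Slc7a7 -0.049 with upper quartile and with total count scaling and -0.101 to 0.146, Slc6a19 -0.183 to 0.248, Slc6a18 -0.029 to 1.478, Slc3a2 -0.333 to 0.047 and Slc7a8 -0.017 to 0.276. For db/db against db/m, Slc6a18 gave -0.593 with limma, -1.075 with voom and -0.959 to 0.542, Slc3a1 -0.233 with voom and -0.346 to 0.375, Slc1a1 -0.154 with voom and -0.239 to 0.498, and Tmem27 -0.108 to 0.233. For dapa against db/m, Tmem27 gave -0.034 with voom and -0.09 to 0.157. Among log2 ratios, leaving out mice gave -0.187 to 0.185 for Slc3a2 to Slc7a7 and -0.54 to 1.658 for Tmem27 to Slc6a18 (db/db, db/m), and for dapa against db/db -0.242 to 0.034 for Slc7a7 to Slc7a8, -0.496 to 0.233 for Tmem27 to Slc6a19, -2.081 to 0.118 for Tmem27 to Slc6a18 and -1.585 to 0.247 for Slc6a19 to Slc6a18.

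The main fit treated the mice as unpaired. Deviations from the group means of equally numbered mice (replicates 1, 2 and 3) correlated at 0.402, -0.159 and 0.563 for dapa with db/db. They correlated at -0.131, -0.238 and -0.323 for db/db with db/m, and at -0.098, 0.221 and -0.173 for dapa with db/m. In the same order, 4, 0 and 2 of 6 mice were closest to their own number. With the replicate block 0, 185 and 167 genes and 0 members were called in these comparisons, Slc6a6 and Slc36a4 lost their calls (adjusted p = 0.114 and 0.135), and 2 member values reversed, Tmem27 to 0.007 (dapa, db/db) and Slc6a18 to -0.345 (db/db, db/m).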
